A study of Homo sapiens with 30 samples.

Results

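ARTN and IPO13 lie next to each other on the short arm of chromosome 1, and the values below describe them with 4 neighbouring genes, ST3GAL3, DPH2, ATP6V0B and B4GALT2. These are 6 of the 20090 protein-coding genes examined. The 6 genes were selected on their position and on the measured peak ranks of the parental and SAP30-KO1 libraries, which were already known, so their difference between the lines is given as a description, with no test. The stretch of chromosome 1 from 44.3 to 44.5 Mb (GRCh37) was searched for peaks in all 18 lists. The question was whether ARTN and IPO13, a pair taken as corepressed by SAP30 and the SIN3 proteins, stood apart from the genes beside them.

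The libraries were ChIP-seq libraries (sequencing of DNA recovered by chromatin immunoprecipitation) of MDA-MB-231, a line of triple-negative breast cancer cells. Parental cells were profiled for SAP30, SIN3A and SIN3B, and both the parental and the SAP30-KO1 line for RNA polymerase II (Pol II), H3K4me3 and H3K9Ac, with 2 replicate libraries for each protein or mark and line. SAP30-KO1 was made by CRISPR/Cas9, and per the study's methods a knockout line is a mixture of several single-cell clones, so a lower signal in fewer cells cannot be told apart from a lower signal in every cell. Both lines were grown in the same serum-containing medium. No SAP30 list of the knockout line was analysed here, so the loss of SAP30 could not be checked in these lists. Nothing in the labels says that the replicates came from separate cultures.

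SAP30 is a subunit of the SIN3 corepressor complex, in which SIN3A or SIN3B serves as the scaffold that carries histone deacetylases to promoters. H3K4me3 and H3K9Ac are histone marks of active promoters, H3K9Ac is removed by histone deacetylases, and Pol II at a promoter marks loaded polymerase. ARTN encodes artemin, a secreted ligand of the GDNF family that signals through a GFR alpha coreceptor and the RET kinase. IPO13 encodes importin 13, which carries cargo through the nuclear pore. ST3GAL3 adds sialic acid and B4GALT2 adds galactose to glycans, DPH2 takes part in making the diphthamide residue of elongation factor 2, and ATP6V0B is a membrane subunit of the proton-pumping V-ATPase.

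Each list held between 10861 and 54622 peak summits. A summit is the single base at which a peak was highest, and its deposited score is the −log10 of a q-value. Within a list the summits were ranked by that score from 0% (best) to 100% (worst), and a gene received in each list the percent rank of its best summit within 1000 bp of an annotated start site. A gene was called better or worse in SAP30-KO1 when both SAP30-KO1 ranks lay on the same side of both parental ranks. Shares called better or worse and changes over all genes cover the genes with a promoter peak of that measurement in all 4 libraries. The sequencing depth is unknown, and a rank depends on all other peaks of its list. With 2 libraries against 2, an exact permutation test could not go below p = 0.33.

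All 6 genes are on the plus strand and follow each other closely. ST3GAL3 ends 2154 bp before ARTN (3921 bp long), which lies 9709 bp before IPO13 (21073 bp long). IPO13 is followed by DPH2 after 1977 bp, DPH2 by ATP6V0B after 1117 bp, and ATP6V0B by B4GALT2 after 647 bp. The ST3GAL3 start sites, the first at 44173198, lie outside the searched stretch, and only its downstream part is inside. Within 1000 bp of a start site no summit was shared by neighbouring genes. At 3000 bp, 5 summits were shared by ATP6V0B and B4GALT2. 2 other protein-coding genes start in the stretch, CCDC24, a coiled-coil protein gene, and SLC6A9, which encodes a glycine transporter.

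Sequences at or beside the SAP30 summits are shown to give the bases around SAP30 in these cells. For each gene the closest pair of SAP30 summits from the 2 libraries was taken, with 100 bp on each side of their midpoint, and only bases outside untranslated regions are printed, read from GRCh37 on the plus strand, 5′ to 3′. Capitals mark a match on either strand to the GC box GGGCGG, the ETS motif CCGGAAG, the CCAAT box, the TATA box TATAAA or the E-box CACGTG. The stretches are chr1:44412153-44412353 at IPO13, chr1:44435619-44435681 at DPH2, chr1:44440551-44440615 at ATP6V0B and chr1:44445439-44445548 at B4GALT2. The IPO13 and B4GALT2 stretches hold both SAP30 summits and the ATP6V0B stretch holds that of replicate 2, whereas the DPH2 stretch ends before both, which lie in its leader. The 49 bases outside the leader in the ST3GAL3 window held no match and are not printed. The closest SAP30 summits at ARTN were at 44399303 (rank 41.6, replicate 1) and 44399384 (rank 83.2, replicate 2). At ARTN the whole SAP30 window was untranslated leader, so the 150 bases before its first start site are shown, chr1:44398842-44398991.
ARTN, before the start: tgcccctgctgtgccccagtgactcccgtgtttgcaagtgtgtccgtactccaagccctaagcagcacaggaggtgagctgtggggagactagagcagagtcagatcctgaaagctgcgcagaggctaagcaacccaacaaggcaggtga
IPO13, SAP30 window: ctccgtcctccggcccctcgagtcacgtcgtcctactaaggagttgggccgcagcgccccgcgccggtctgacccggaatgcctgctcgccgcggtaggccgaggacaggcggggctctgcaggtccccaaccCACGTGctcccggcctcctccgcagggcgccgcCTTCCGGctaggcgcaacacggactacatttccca
DPH2, SAP30 window before the start: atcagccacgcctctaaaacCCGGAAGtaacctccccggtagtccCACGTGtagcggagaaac
ATP6V0B, SAP30 window before the start: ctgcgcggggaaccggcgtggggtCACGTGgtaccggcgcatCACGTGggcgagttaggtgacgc
B4GALT2, SAP30 window outside the leader: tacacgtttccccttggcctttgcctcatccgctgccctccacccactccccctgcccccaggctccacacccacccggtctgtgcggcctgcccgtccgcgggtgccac

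Over the whole windows of 201 bp, leader included, CACGTG was present at 4 of the 6 genes, IPO13, DPH2, ATP6V0B (2 matches) and B4GALT2, and in 9.08% of the 10866 SAP30 windows of all genes with SAP30 in both libraries. CCGGAAG was present at IPO13 and DPH2, against 10.4% of all windows. GGGCGG was present at ARTN, ATP6V0B and B4GALT2, against 57.2%. The CCAAT box and the TATA box were found at none of the 6, against 12.4% and 1.17%. GC content was 72.1% at ARTN, 71.1% at IPO13, 76.1% at ST3GAL3, 60.2% at DPH2, 72.6% at ATP6V0B and 71.1% at B4GALT2, and the median of all windows was 70.1%. DPH2 was thus the one member below the 25th percentile of all windows, 64.7%. These matches are letters in a window and were not tested as binding sites.

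SAP30 had a promoter summit at every member in both libraries, as it did at 61.2% of all protein-coding genes. The percent rank in replicates 1 and 2 was 2.52 and 4.67 at B4GALT2, 3.10 and 3.53 at DPH2, and 4.50 and 2.81 at IPO13, and these 3 genes overlapped in rank. ST3GAL3 followed with 10.0 and 14.8, then ATP6V0B with 16.9 and 16.6. ARTN stood last with 41.6 and 56.5, behind the other 5 members in both libraries, and these 2 summits lay at different sites. The SAP30 score at ARTN was 19.1 and 8.88, against 109 and 88.6 at IPO13.

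SIN3A, which had a promoter summit in both libraries at 31.5% of all genes, was found in both libraries at 5 of the 6 members and in neither at ARTN. DPH2 had the best SIN3A ranks, 9.61 and 1.71. B4GALT2 had 12.0 and 15.8, ST3GAL3 had 19.3 and 13.9, and IPO13 had 20.6 and 19.0. ATP6V0B had 38.4 in replicate 1 and 10.9 in replicate 2, so its place among the members differed between the libraries.

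SIN3B was found in both libraries at 51.7% of all genes and at 5 of the 6 members. DPH2 again ranked best, at 1.80 and 2.92, followed by IPO13 at 7.45 and 7.10. ATP6V0B had 18.8 and 24.2, B4GALT2 had 26.8 and 24.2, and ST3GAL3 had 29.9 and 14.8, and these 3 overlapped. ARTN had 1 SIN3B summit in replicate 1, at rank 74.9, and none in replicate 2. In all, 16 of the 18 pairs of a member and a protein had a summit in both libraries, and both exceptions were at ARTN. IPO13 was thus among the 3 best SAP30 ranks of the members and ARTN had the poorest, and SIN3A was not detected at ARTN at the significance of these lists.

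**Figure D1:**
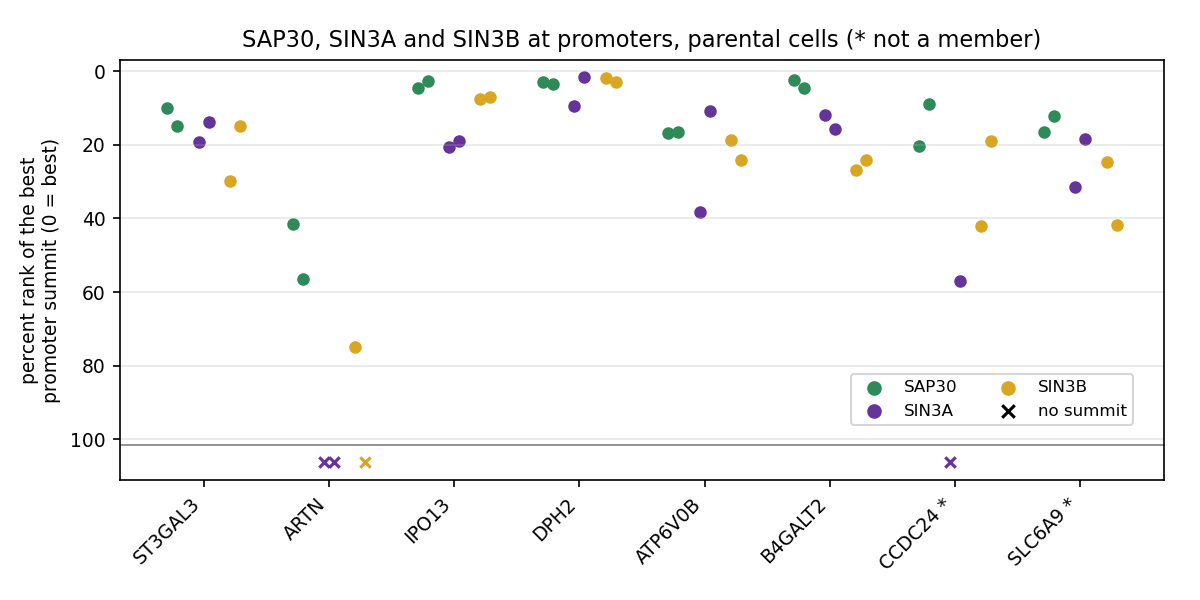
Percent rank of the best summit within 1000 bp of a start site in each of the 2 parental libraries of SAP30, SIN3A and SIN3B (0 at the top is best, one point per library, crosses below the line mark no summit), for the members and the other genes starting in the stretch. ARTN is at 41.6 and 56.5 for SAP30 and has no SIN3A summit, while DPH2 lies between 1.71 and 9.61 for all 3 proteins.

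The summits lay in different places at the 2 genes of the pair. At IPO13 the SAP30 summits were 358 and 379 bp upstream of the first start site. The antisense RNA RP11-7O11.3 starts 399 bp from that start site on the minus strand, and ChIP carries no strand, so the 2 transcripts cannot be told apart there. The same holds at ST3GAL3, 297 bp from the start of KDM4A-AS1, and at ATP6V0B, 123 bp from the start of an unnamed antisense RNA. The best SIN3A summit was 335 bp upstream in replicate 1 and 5 bp upstream in replicate 2. The best Pol II summits were 13 and 71 bp downstream in parental cells and 1 and 46 bp downstream in SAP30-KO1 cells. At ARTN, which has 7 annotated start sites over 2488 bp, the SAP30 summits fell within the cluster of start sites. The best were at different sites, 44399303 in replicate 1 and 44399831 in replicate 2. Each library had 1 further SAP30 summit, at 44399949 (rank 86.2) in replicate 1 and 44399384 (rank 83.2) in replicate 2. At DPH2 the SAP30 summits were 52 and 7 bp downstream of the nearest start site, and at B4GALT2 they were 18 and 1 bp upstream.

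**Figure D2:**
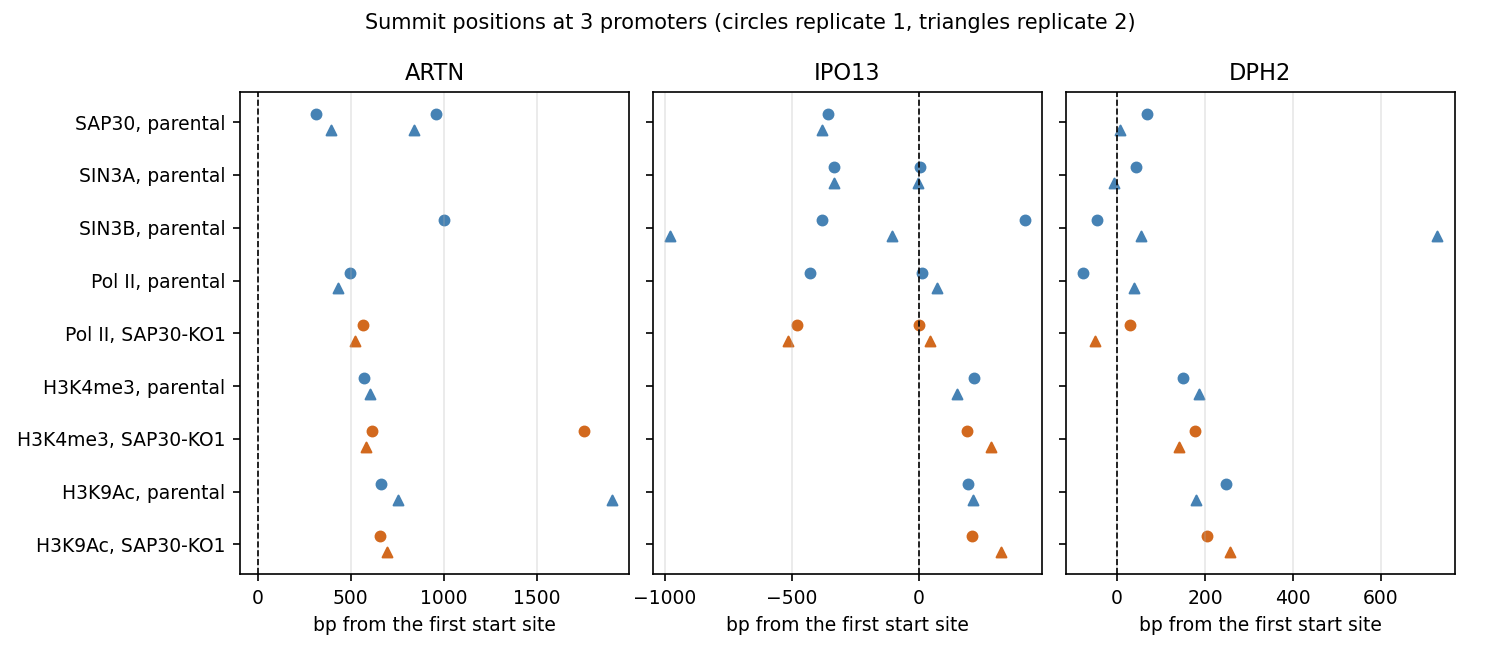
Positions in bp from the first annotated start site (dashed line) of all summits near a start site of ARTN, IPO13 and DPH2, by protein or mark and line, with circles for replicate 1 and triangles for replicate 2, and blue for parental and orange for SAP30-KO1. At IPO13 the SAP30 summits lie 358 and 379 bp upstream of the first start site, and at DPH2 they lie 7 and 52 bp downstream of the nearest one.

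Pol II summits were present in all 4 libraries at all 6 members, as at 53.3% of all genes (10703 genes). At ARTN the Pol II rank was 61.6 and 59.3 in parental replicates 1 and 2 and 50.6 and 40.5 in SAP30-KO1 replicates 1 and 2. Both SAP30-KO1 ranks were better, and the lines did not overlap. The change was −14.9 ± 5.17 percentage points (SD pooled over the lines, n = 2 each), and 4.75% of these 10703 genes had a more negative change. IPO13 was at 19.8 and 12.6 in parental and at 4.65 and 2.30 in SAP30-KO1 cells, again better in both libraries. Its change was −12.7 ± 3.76, and 6.69% of genes had a more negative one. Without SAP30-KO1 replicate 2 the ARTN change was −9.82. Among the 10703 genes with Pol II in all 4 libraries 15.4% were called better and 24.2% worse, and their median change was 1.48.

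The neighbours did not move as one group. ST3GAL3 ranked 15.5 and 6.21 in parental and 3.43 and 5.35 in SAP30-KO1 cells, and B4GALT2 44.1 and 44.8 against 35.1 and 40.5. Both were better in SAP30-KO1, by −6.46 ± 4.74 and −6.68 ± 2.76. The ST3GAL3 change ran from −1.82 without parental replicate 1 to −11.1 without parental replicate 2, and the B4GALT2 change was −3.94 without SAP30-KO1 replicate 1. ATP6V0B overlapped between the lines, at 20.9 and 14.4 against 23.4 and 7.12. DPH2 went the other way, from 63.8 and 50.3 in parental to 91.8 and 87.1 in SAP30-KO1 cells. Its change of 32.4 ± 7.15 was above that of 98.5% of the genes with Pol II in all 4 libraries. In count, 4 members were better, 1 worse and 1 overlapping.

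The DPH2 value depends on the scale. Its Pol II score was 8.25 and 15.2 in parental and 2.31 and 2.81 in SAP30-KO1 libraries, close to 1.3, the lowest score in any list. When genes were ranked only among the 10703 genes with a Pol II peak in all 4 libraries, DPH2 was already at 96.7 and 94.5 in parental cells and was at 99.4 and 97.8 in SAP30-KO1 cells, so that its change shrank to 2.96, still worse in both libraries. With the scores of all summits of a promoter added up, the change was 7.26. ARTN on the same gene-only scale went from 95.9 and 98.1 to 87.6 and 72.1, and IPO13 from 40.5 and 28.8 to 10.5 and 4.70, both still better, with changes of −27.1 at IPO13, −13.7 at ST3GAL3 and −14.3 at B4GALT2. Of all genes on the gene-only scale, 20.1% were called better and 20.2% worse. Summed scores gave −9.74 at ARTN, −20.1 at IPO13 and −21.6 at B4GALT2.

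A better rank was not a higher score here. Parental Pol II lists had median scores of 14.0 and 15.5, and SAP30-KO1 lists had 7.21 and 5.80. The IPO13 score was 39.7 and 68.5 in parental and 36.9 and 35.2 in SAP30-KO1 libraries, and the ARTN score was 8.65 and 9.80 against 6.99 and 7.39. Relative to the median of its own list, ARTN went from 0.618 and 0.631 to 0.969 and 1.27. On that scale, as log2 of the score over the list median, ARTN and IPO13 remained better in both SAP30-KO1 libraries, while ST3GAL3 and B4GALT2 overlapped.

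**Figure D3:**
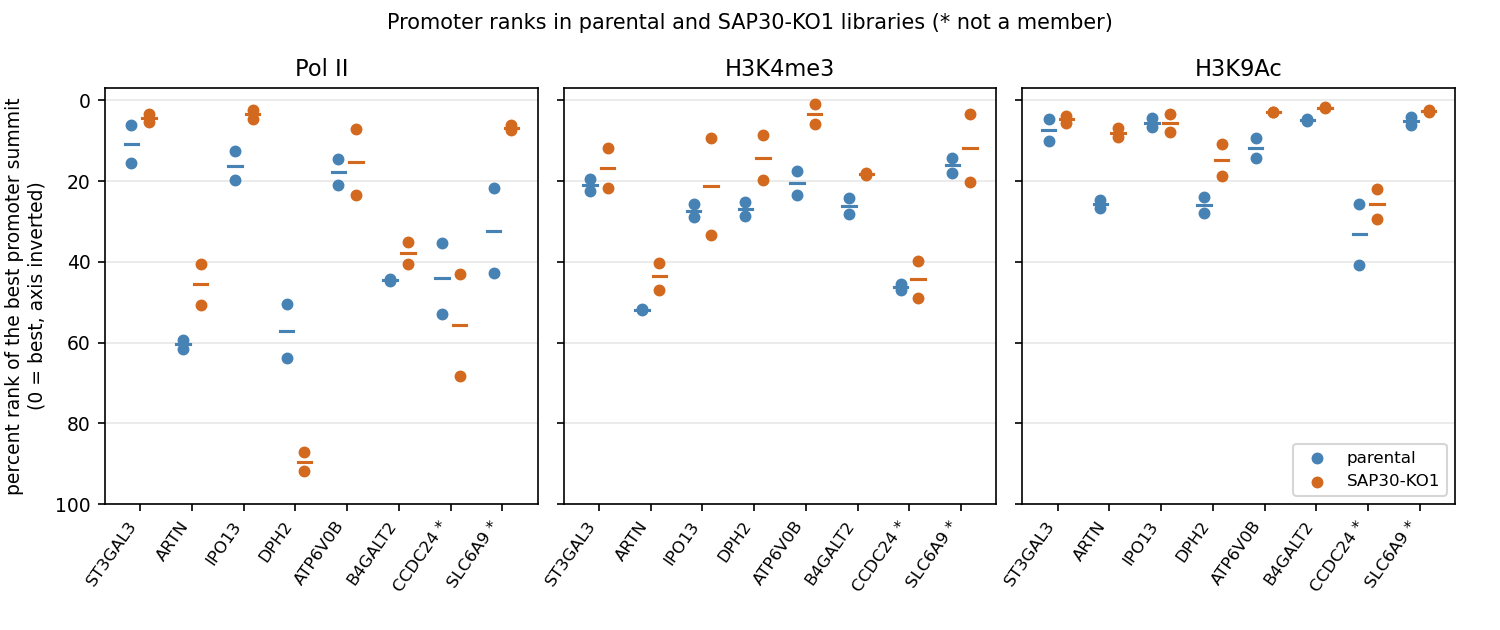
Percent rank of the best promoter summit of Pol II, H3K4me3 and H3K9Ac at each gene (axis inverted, 0 at the top is best), with one point per library, a line at the mean, blue for parental and orange for SAP30-KO1 cells. For Pol II the DPH2 points drop to 91.8 and 87.1 in SAP30-KO1, while those of ARTN and IPO13 lie above their parental points.

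To set the pair against its neighbours, the mean rank of the 4 neighbours was subtracted from the mean rank of ARTN and IPO13 in each library. For Pol II this difference was 4.56 and 7.03 in the parental libraries and −10.8 and −13.6 in the SAP30-KO1 libraries, a change of −18.0 ± 1.88, and the lines did not overlap. The size depended on DPH2. Without DPH2 the difference was 13.8 and 14.2 in parental and 7.01 and 3.74 in SAP30-KO1 libraries, and the change was −8.61, still without overlap. With CCDC24 and SLC6A9 counted as neighbours it was −14.3. SLC6A9, which is not a member, had a more negative change than either gene of the pair. It went from 42.8 and 21.8 to 7.41 and 6.24, a change of −25.5 ± 10.5. The size of the SLC6A9 change, and with it the −14.3, depended on the promoter window. A better Pol II summit of parental replicate 1, at 44495802 with rank 26.4, lay just outside the window and was not counted. The summit used for SAP30-KO1 replicate 2, at 44495862, lay 987 bp from a start site, just inside it. Rank 26.4 is still worse than both SAP30-KO1 ranks. CCDC24 overlapped, at 52.8 and 35.3 against 43.1 and 68.3.

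H3K4me3 was present in all 4 libraries at all 6 members, as at 62.4% of all genes (12527 genes). ATP6V0B had the most negative change of the members. Its ranks were 23.5 and 17.6 in parental and 5.79 and 0.844 in SAP30-KO1 cells, a change of −17.2 ± 3.89, and 0.822% of genes had a more negative one. DPH2, whose Pol II rank was worse in SAP30-KO1, had better H3K4me3 ranks there, 19.8 and 8.62 against 25.1 and 28.5. ARTN went from 52.0 and 51.8 to 47.0 and 40.3, and B4GALT2 from 24.1 and 28.1 to 18.6 and 17.9. These 4 members did not overlap between the lines and were better in SAP30-KO1, beside a background of 11.5% of genes better and 28.1% worse.

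IPO13 and ST3GAL3 overlapped for H3K4me3. IPO13 was at 29.0 and 25.8 in parental cells, at 9.40 in SAP30-KO1 replicate 1 and at 33.3 in SAP30-KO1 replicate 2. By rank its 2 knockout libraries thus fell on either side of the parental ones. The median scores of the H3K4me3 lists were 98.2 and 157 in parental and 168 and 85.9 in SAP30-KO1 libraries. Relative to the median of its own list, the IPO13 score was close in all 4 libraries, at 2.48 and 2.16 against 2.45 and 2.19. ST3GAL3 was at 19.6 and 22.5 against 21.7 and 11.7. The difference of the pair from its neighbours was 17.4 and 14.6 in parental and 11.7 and 27.0 in SAP30-KO1 libraries, a change of 3.37 ± 7.76 with overlap. It was −4.26 without SAP30-KO1 replicate 2 and 11.0 without SAP30-KO1 replicate 1. On the log2 scale relative to the list median, ARTN alone of the members remained better in both SAP30-KO1 libraries. On the gene-only scale the changes were larger, −36.1 at ATP6V0B, −27.1 at DPH2, −17.1 at B4GALT2 and −11.9 at ARTN. ST3GAL3 was also better on that scale, where 18.4% of the genes with H3K4me3 in all 4 libraries were called better. Without SAP30-KO1 replicate 2 the H3K4me3 change was −4.89 at ARTN and −7.05 at DPH2.

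H3K9Ac was present in all 4 libraries at all 6 members, as at 60.0% of all genes (12044 genes). ARTN had the most negative change of the 6. Its ranks were 24.6 and 26.7 in parental and 9.15 and 6.96 in SAP30-KO1 cells, and its score was 29.8 and 22.9 against 64.8 and 108. The change was −17.6 ± 1.51, and 0.980% of genes had a more negative one. DPH2 went from 27.9 and 24.0 to 18.6 and 10.9, ATP6V0B from 14.4 and 9.45 to 2.80 and 2.91, and B4GALT2 from 4.52 and 5.08 to 1.89 and 1.74. These 4 genes were better in both SAP30-KO1 libraries, beside 16.4% better and 22.1% worse of the 12044 genes. The DPH2 change of −11.2 was −7.29 without SAP30-KO1 replicate 2.

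IPO13 was not among them. It was already at 4.38 and 6.63 in parental cells and was at 3.39 and 7.89 in SAP30-KO1 cells, a change of 0.131 ± 2.51. ST3GAL3 overlapped as well, at 10.2 and 4.65 against 3.96 and 5.52, but was better in both SAP30-KO1 libraries on the log2 scale relative to the list median (−0.35, negative meaning better). The difference of the pair from its neighbours was 0.277 and 5.88 in parental and −0.553 and 2.16 in SAP30-KO1 libraries, a change of −2.28 ± 3.11 with overlap. With DPH2 left out of the neighbours it was −3.84, and the lines no longer overlapped. On the gene-only scale ARTN moved from 84.3 and 85.6 to 37.2 and 29.4, a change of −51.7, and DPH2, ATP6V0B and B4GALT2 had changes of −28.4, −37.8 and −13.5. Summed scores gave −41.5 at ARTN.

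**Figure D4:**
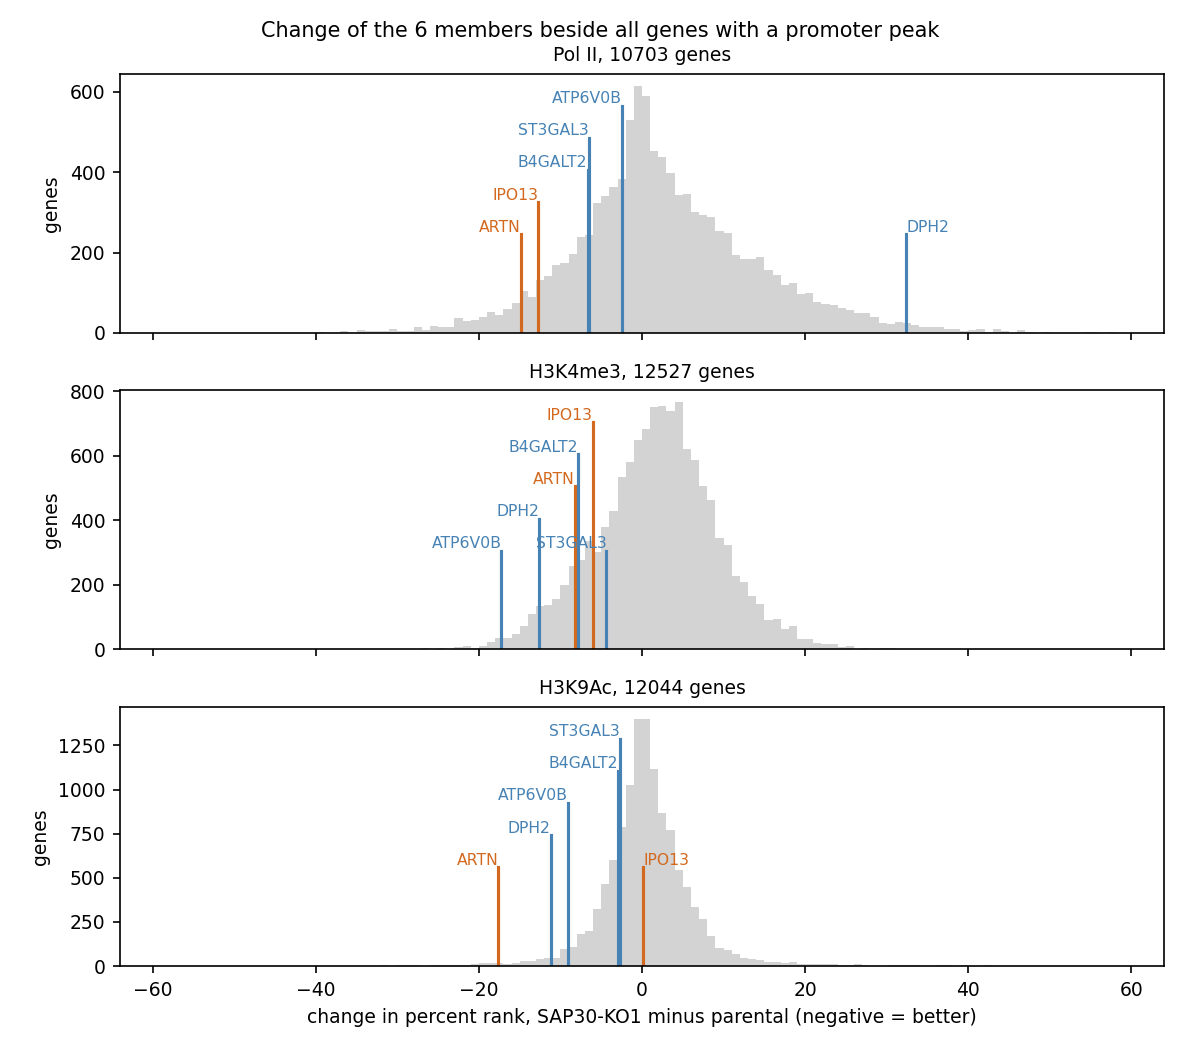
Number of genes by their change in percent rank (SAP30-KO1 mean minus parental mean, negative is better) for Pol II, H3K4me3 and H3K9Ac, over the genes with a promoter peak in all 4 libraries, with the pair in orange and its neighbours in blue. DPH2 stands at 32.4 for Pol II and ARTN at −17.6 for H3K9Ac, while IPO13 is at 0.131 for H3K9Ac.

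Across the 3 measurements, ARTN and B4GALT2 were called better each time by percent rank, DPH2 and ATP6V0B for both histone marks. On the log2 scale relative to the list median, ARTN stayed better each time. On that scale B4GALT2 overlapped for Pol II and H3K4me3, and DPH2 and ATP6V0B overlapped for H3K4me3. The share of all genes called better in several measurements at once was not computed. IPO13 was called better for Pol II and overlapped for both histone marks. The difference between the pair and its 4 neighbours was without overlap between the lines for Pol II, and overlapped for H3K4me3 and H3K9Ac. The median change over the 6 members in Pol II was −6.57, in H3K4me3 −8.07 and in H3K9Ac −6.02. Over all genes with a peak in all 4 libraries it was 1.48, 2.09 and 0.310. Since the genes were chosen with these ranks known, those medians are a description.

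The stretch held 230 summits of the 18 lists, and joining summits within 1000 bp gave 15 regions. Of these, 7 lay at promoters, 7 in introns and 1 in an exon of ATP6V0B. The promoters of IPO13, DPH2, ATP6V0B, B4GALT2 and SLC6A9 had summits of all 18 lists. The ARTN promoter had summits of 15 lists, and that of CCDC24 of 17. All 5 regions with SIN3A in both libraries also had SAP30 in both libraries, whereas SAP30 was present in both at 10 regions. In no region was a mark found in both libraries of one line and missing from both of the other.

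3 intronic regions held both SAP30 libraries, 2 of them in ST3GAL3. The larger, at 44300141 to 44302680, held SAP30 (best ranks 42.1 and 47.1), SIN3B (64.0 and 63.7), Pol II and H3K9Ac, with no SIN3A and no H3K4me3 summit inside the stretch. Its Pol II ranks were 90.5 and 53.2 in parental and 58.2 and 34.2 in SAP30-KO1 libraries, which overlapped. Its H3K9Ac ranks were 17.6 and 18.7 against 10.6 and 19.4. This region lies at the edge of the stretch, and the nearest summit outside, of H3K4me3 in parental replicate 2, was 197 bp beyond the edge at rank 97.9. The other, at 44395005 to 44395971, lies 3021 bp before the ARTN start and held SAP30 at 43.4 and 77.4, with H3K9Ac in all 4 libraries (34.7 and 50.2 against 32.0 and 36.6).

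**Figure D5:**
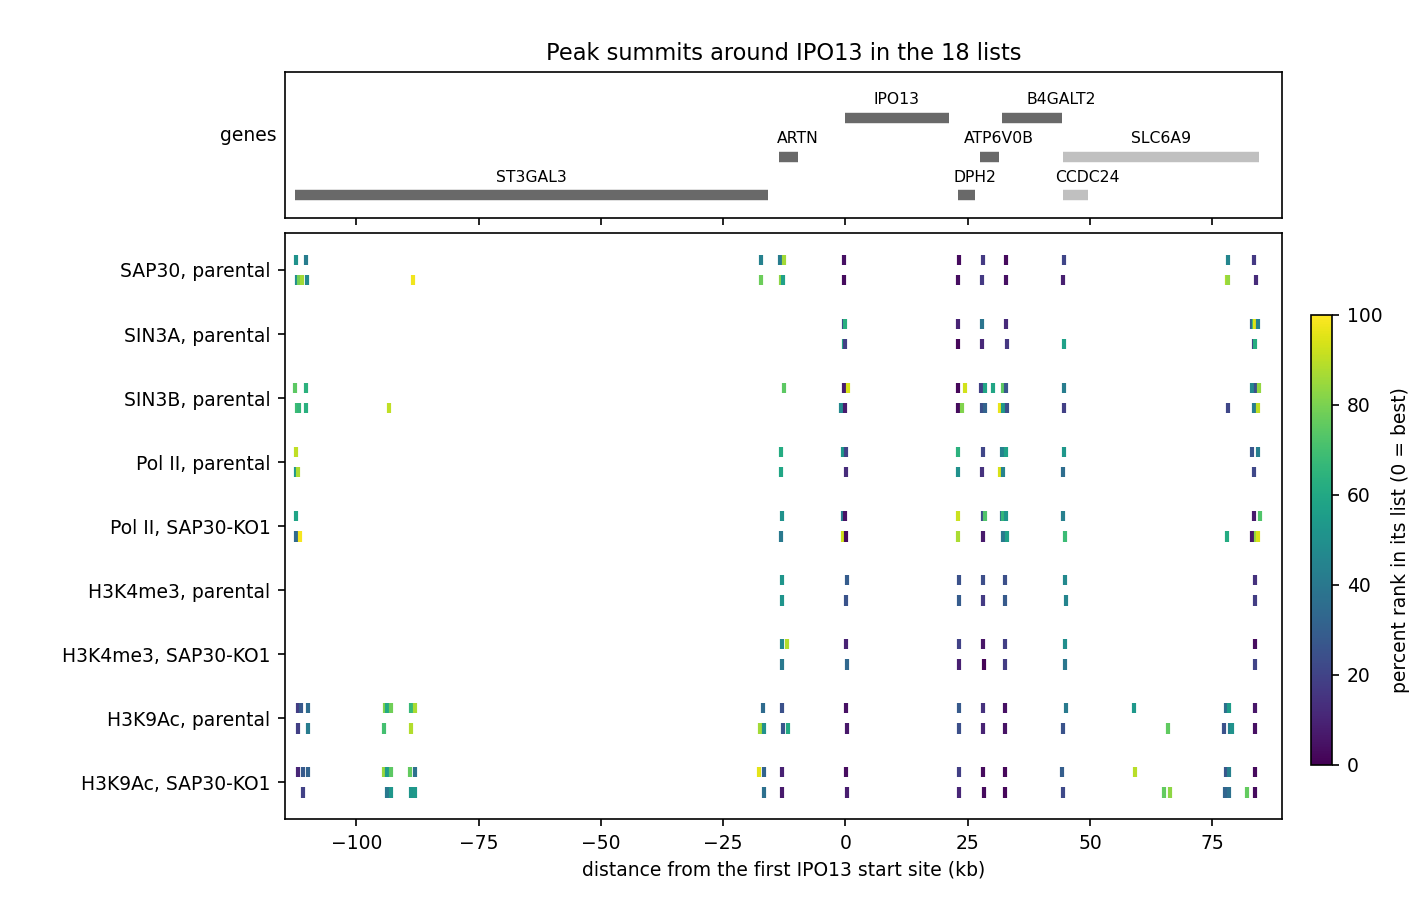
All 230 summits of the stretch by distance in kb from the first IPO13 start site, one row per protein or mark and line with replicate 1 above replicate 2, coloured by percent rank (dark is best), with the members in dark grey and the other genes in light grey above. SIN3A summits are absent at ARTN, the first gene to the left of IPO13, and the intronic ST3GAL3 regions at the left carry H3K9Ac without H3K4me3.

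The wider neighbourhood was taken as 36 other protein-coding genes starting within 1 Mb of the stretch. For Pol II, 27 of them had a peak in all 4 libraries, and 9 (33.3%) were better and 5 (18.5%) worse, with a median change of −0.644. Over all genes with Pol II in all 4 libraries, 15.4% were better and 24.2% worse. For H3K4me3, 10 of 26 (38.5%) were better and 3 (11.5%) worse, with a median of −3.82. Over all genes with H3K4me3 in all 4 libraries, 11.5% were better and 28.1% worse. For H3K9Ac, 6 of 28 (21.4%) were better and 4 (14.3%) worse, with a median of −1.40, beside 16.4% and 22.1%. The largest Pol II changes with a call were at PTPRF, a receptor tyrosine phosphatase gene (from 29.6 and 27.2 to 54.3 and 69.0), at SLC6A9, and at ZNF691, a zinc finger gene (from 48.2 and 29.1 to 59.1 and 57.6). For H3K4me3 they were at SLC2A1, which encodes the glucose transporter GLUT1 (1.79 and 0.882 against 9.23 and 35.4), and at KDM4A, a histone demethylase gene just upstream of ST3GAL3 (24.7 and 32.3 against 12.9 and 5.00). KDM4A shares its start with a readthrough transcript that runs into ST3GAL3, and the 2 cannot be told apart at the promoter. Both are annotated as genes and both are among the 10 better for H3K4me3, so 1 promoter enters that count 2 times. For H3K9Ac they were at EIF2B3, a translation initiation factor subunit (26.0 and 25.3 against 15.4 and 17.9), DYNLT4, a dynein light chain (17.5 and 19.7 against 11.4 and 11.5), and ZNF691 (6.46 and 12.9 against 14.1 and 16.7).

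The families of the members were examined as well, and no family was tested. Each family count below stands beside the shares over all genes with a peak in all 4 libraries. These were 15.4% better and 24.2% worse for Pol II, 11.5% and 28.1% for H3K4me3, and 16.4% and 22.1% for H3K9Ac. Of the 9 GDNF ligands and receptors, ARTN alone had Pol II in all 4 libraries, and NRTN, which encodes neurturin, had H3K4me3 and H3K9Ac in all 4, Pol II in 3 and SAP30 in both. The other 7, RET and the GFRA genes among them, had no promoter summit of any of the 6 proteins and marks. Of 18 importin-beta family genes, 17 had Pol II in all 4 libraries, and 4 were better and 2 worse. IPO4 (33.1 and 15.3 against 9.54 and 8.29) and TNPO2, a transportin (33.1 and 39.0 against 32.2 and 16.9), were better for Pol II beside IPO13. For H3K4me3, TNPO3, another transportin, was worse (11.8 and 7.75 against 26.3 and 22.6). IPO8 was worse for H3K4me3 (16.7 and 7.75 against 29.7 and 23.7) and for H3K9Ac (9.25 and 8.67 against 23.1 and 18.8). In H3K4me3, 3 of 18 were better and 3 worse, and in H3K9Ac 3 were better and 4 worse. The H3K9Ac counts lie close to the shares over all genes.

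Of the 7 diphthamide genes, 1 was better and 2 were worse for Pol II, close to the 15.4% and 24.2% over all genes. DPH2 was worse by 32.4, whereas DPH1 was worse by 2.54 (55.3 and 52.9 against 57.7 and 55.6) and DPH5 was better by −2.88. For H3K4me3, 2 were better and 2 worse, beside 11.5% and 28.1% over all genes. For H3K9Ac, 3 were better and 2 worse, beside 16.4% and 22.1%. DPH7 was better for both histone marks like DPH2, with H3K4me3 at 19.7 and 30.7 against 10.5 and 11.4. In the V-ATPase V0 sector, 9 of 11 genes had Pol II in all 4 libraries, with 1 better and 2 worse. ATP6V0A2 had an H3K4me3 change of −20.9 (26.4 and 25.2 against 3.87 and 5.95), beside −17.2 at ATP6V0B, and these were the only 2 of 9 called better for H3K4me3, with none worse.

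B4GALT2 was the only one of 7 beta-4-galactosyltransferase genes called better by percent rank in each measurement. For H3K4me3, 3 of the 7 were worse, among them B4GALT1 (3.37 and 7.34 against 16.6 and 14.5) and B4GALT6 (32.4 and 23.3 against 41.7 and 33.6). For H3K9Ac, B4GALT1 (1.17 and 1.06 against 2.55 and 5.17) and B4GALT5 were worse. Of the 6 alpha-2,3-sialyltransferases, 3 of the 5 with Pol II in all libraries were better, among them ST3GAL3 and ST3GAL6 (44.3 and 38.0 against 29.0 and 22.7). ST3GAL2 was worse for Pol II (34.7 and 36.0 against 36.9 and 60.3). For H3K4me3, 3 of 6 were worse and none was better. Over all genes, 15.4% were better for Pol II, and 28.1% were worse and 11.5% better for H3K4me3.

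The ranks over the 18 lists also gave a measure of likeness, the root mean square difference, with a missing summit set to 100. ARTN and IPO13 differed by 47.9 points, whereas IPO13 differed from ST3GAL3 by 9.41, from ATP6V0B by 12.5, from B4GALT2 by 16.9 and from DPH2 by 33.7. ARTN was far from every member, at 41.8 from B4GALT2, 43.5 from ATP6V0B, 46.2 from ST3GAL3 and 49.4 from DPH2. Its missing SIN3A and SIN3B summits enter these distances as 100. The genes most like ARTN were OAS2 on chromosome 12 (8.05), ZFHX2 on chromosome 14 (9.14) and ATOH7 on chromosome 10 (9.32). Those most like IPO13 were ARIH2 on chromosome 3 (5.63), ZNF131 on chromosome 5 (5.67) and SLC12A2 on chromosome 5 (6.06). The lists share libraries of the same cells, and no test was made of these distances.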

How the data were processed

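The deposited files were MACS2 summit lists, 1 per library, in which the score that the authors deposited is the −log10 of a q-value. Per the submitters' processing notes, the tools were FastQC 0.11.2, Bowtie2 2.3.3.1, Picard and MACS2 2.1.0, with the build hg19. The labels name inputs for SAP30 with SIN3A, for SIN3B and for Pol II in either line. Whether each list was called against its input, the MACS2 options and the sequencing depth are not given in the sources used here. The number of summits per list and tied scores, which share their mean rank, limit the precision. In Pol II of SAP30-KO1 replicate 2, for example, ARTN and B4GALT2 shared the score 7.39 and the rank 40.5. A further 12 samples, of input or total H3, were not used here.

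Summits were assigned to start sites of basic protein-coding transcripts in GENCODE release 44 lifted to GRCh37. Ranks were computed with Python 3.11.15, numpy 2.4.6 and scipy 1.17.1. The code for ranks and calls was run on simulated lists of well separated genes with little replicate noise. That run checks the code and does not measure how often a call is wrong in these data. The genes and lists were chosen with earlier results of these data known. The genes named were the members, the other genes starting in the stretch, up to 3 called genes per family and mark and per mark in the wider neighbourhood with the largest changes, and the 3 genes most like ARTN and IPO13. Alternatives were promoter windows of 500 and 3000 bp, gene bodies, gene-only ranks, log2 scores, summed scores, other neighbours and libraries left out.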

Additional observations from a re-analysis of the deposited data

How the results depend on the processing

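The difference of ARTN and IPO13 from their neighbours in Pol II kept its direction under every alternative run. It was −8.86 with summed scores, −14.5 with gene-only ranks and −14.3 with CCDC24 and SLC6A9 added, and with 1 library left out it ran from −19.4 to −16.6. Alternatives chosen after seeing the data left out 1 neighbour at a time and gave −8.61 without DPH2, −21.6 without ST3GAL3, −20.2 without ATP6V0B and −21.6 without B4GALT2. For H3K4me3 it ran from −4.26 to 11.0 with 1 library left out and was −0.18 on the log2 scale, where a negative value also means better. For H3K9Ac it ran from −5.08 to 0.525 with 1 library left out and was 0.698 with summed scores. On the log2 scale the number of better members was 2 in Pol II, 1 in H3K4me3 and 5 in H3K9Ac, in place of 4 each. With summed scores 3 were better for Pol II, where ST3GAL3 overlapped, and 5 for H3K4me3. The shares of all genes called on the log2 and summed scales were not computed, so these counts have no background beside them. Of 198 alternative values of a member's change, 187 kept their sign. Promoter windows of 500 and 3000 bp, gene bodies and a replicate block returned the main value at every member. Those values therefore add nothing to this count, and for the block the value is fixed by arithmetic. Joining summits within 500 or 2000 bp gave 21 or 13 regions.

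Libraries with the same replicate number did not deviate together (correlations over genes of 0.00754, −0.0188 and −0.0136 for Pol II, H3K4me3 and H3K9Ac), so the numbers do not pair them. A replicate block cannot change the size of the pair's difference from its neighbours. By arithmetic it returned −18.0 in Pol II, 3.37 in H3K4me3 and −2.28 in H3K9Ac, so these values check nothing. What the block can show is the sign of the change within each replicate number. The 2 signs were opposite in H3K4me3 and alike in Pol II. They were also alike in H3K9Ac, where the lines overlapped in the main comparison. Since the numbers do not pair the libraries, the H3K9Ac signs rest on an arbitrary pairing, and no conclusion is drawn from them. Parental replicate 1 was at 0.277 and SAP30-KO1 replicate 2 at 2.16, which set together would give the other sign. In Pol II, where the lines did not overlap, any pairing gives alike signs. With the block the member counts were 4 better in each measurement. The unknown depth and the significance limit of the lists bound what a missing summit can say.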
